A study of Mus musculus with 5 samples.

Results

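Immediate early genes are switched on within minutes of a stimulus without new protein synthesis, and 34 genes of this kind, or of the related activity-induced kind, were examined here in MIN6 cells. They comprised the AP-1, EGR, NR4A, DUSP, KLF and IER families, 4 activity and cAMP genes and 3 further early genes. A member was any non-control probe carrying one of the 34 gene names in the array tables, which gave 40 of 39429 probes and 34 of 31829 gene names, and the probe with the highest mean signal stood for each gene. MIN6 is a mouse insulinoma line that secretes insulin and stands in for beta cells in culture. One group, EXO-HP, had received exosomes, small vesicles that cells release, from ex vivo muscle of mice fed a high fat diet, and the other group, EXO-STD, had received exosomes from muscle of mice fed a standard diet. RNA of 3 EXO-HP and 2 EXO-STD samples was hybridised to 5 one-colour Agilent arrays. Both groups had received vesicles, and no cells without vesicles were analysed here. The labels give no vesicle dose, exposure time, glucose level, age or strain, and they do not say whether muscles were pooled or cultures were separate, so the p-values measure only the spread between these samples, which may be technical.

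Calcium entry, cAMP and growth factor signalling act on transcription factors that are already present in the cell, among them CREB and the SRF-ELK complex, and these factors start transcription of Fos, Egr1, Nr4a1 and their relatives. The products are largely transcription factors, and with them come phosphatases such as the DUSP proteins that switch the kinases off again. In beta cells, glucose with its calcium influx and hormones that raise cAMP are known to induce many of these genes. The transcripts are short-lived, so a single harvest reads the state of the cells at that time.

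The regulatory letters of these genes are shown first for Fos, Junb and Btg2. Fos is the best known early gene, Junb had the largest log2 fold change of the tested members, and Btg2 is one of 3 with the full CREB site. Each sequence runs 5′ to 3′ from 250 bases before to 50 bases after the start, from RefSeq on GRCm38.p6. Capitals mark the CREB site TGACGTCA or its half-site TGACG, the EGR site GCGNGGGCG and the TATA box TATAAA, each searched on both strands. The windows are chr12:85473640-85473939 on the plus strand for Fos, chr8:84978699-84978998 on the minus strand for Junb and chr1:134079106-134079405 on the minus strand for Btg2.
Fos: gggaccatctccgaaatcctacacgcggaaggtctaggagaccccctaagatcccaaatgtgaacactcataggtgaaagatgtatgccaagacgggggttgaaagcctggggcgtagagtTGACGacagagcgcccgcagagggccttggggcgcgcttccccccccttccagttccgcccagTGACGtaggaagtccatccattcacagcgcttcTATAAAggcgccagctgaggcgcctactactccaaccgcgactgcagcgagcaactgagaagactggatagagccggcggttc
Junb: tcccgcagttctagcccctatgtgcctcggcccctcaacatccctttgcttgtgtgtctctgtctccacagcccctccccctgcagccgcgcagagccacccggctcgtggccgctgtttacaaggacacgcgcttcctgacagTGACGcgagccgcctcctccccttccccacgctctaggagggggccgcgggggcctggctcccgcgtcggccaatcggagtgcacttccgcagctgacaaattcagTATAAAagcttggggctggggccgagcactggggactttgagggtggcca
Btg2: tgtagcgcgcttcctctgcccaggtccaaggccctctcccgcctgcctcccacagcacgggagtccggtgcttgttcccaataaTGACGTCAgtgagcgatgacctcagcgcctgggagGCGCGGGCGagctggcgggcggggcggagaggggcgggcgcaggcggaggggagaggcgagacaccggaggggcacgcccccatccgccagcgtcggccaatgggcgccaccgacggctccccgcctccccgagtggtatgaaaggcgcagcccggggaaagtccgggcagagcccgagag

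The Fos window held 2 half-sites, at -129 to -125 and -66 to -62, and a TATA box at -33 to -28, counted from the start. The Junb window held 1 half-site at -106 to -102 and TATAAA at 1 to 6, and the Btg2 window held a full CREB site at -166 to -159 and an EGR site at -131 to -123. Of the 34 genes, 25 had a promoter in the table, and Arc, Crem, Dusp4, Egr1, Egr3, Fosl1, Ier2, Klf10 and Myc had none. A half-site TGACG lay in the window of 18 of the 25 (72%), against 23% of all 27025 genes with a promoter, and against 32.5% of the 6661 promoters whose GC content was at or above the median of these genes. The full CREB site, which contains the half-site, lay in 3 of 25 (Btg2, Dusp1 and Maff), against 2.03% of genes and 2.99% of the GC-rich promoters. The EGR site lay in 10 of 25 (40%), against 6.27% of genes and 20.6% of the GC-rich promoters. The CArG box, the motif of SRF, lay in 3 (Dusp5, Egr2 and Srf), against 1.81% of genes and 0.871% of the GC-rich promoters. The AP-1 site TGACTCA and the NR4A site AAAGGTCA lay in 0 of the 25 windows, against 5.95% and 1.7% of genes and 2.13% and 0.48% of the GC-rich promoters. The letters TATAAA lay in 4 of 25 (16%: Fos, Junb, Nr4a2 and Srf), against 15.7% of genes and 2.57% of the GC-rich promoters. They lay at -33 to -28 in Fos and -38 to -33 in Srf, but at 1 to 6 in Junb and -164 to -159 in Nr4a2. The count took them anywhere in the window. The GC-rich promoters are not a matched set, since the member promoters ran from 46.67% to 81.67% GC, with a median of 64%. A member counted if any of its promoters held the motif, whereas the GC-rich shares count single promoters. These matches describe letters in a window and not bound sites. Bases outside the windows were not searched. A motif that a window lacks, such as the CArG box in that of Fos, may therefore lie elsewhere.

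The 5 arrays lay on 2 slides. EXO-HP replicate 1 shared its slide and scan with both EXO-STD arrays, and EXO-HP replicates 2 and 3 lay on a second slide. Between 74.0% and 91.6% of spots on the EXO-HP arrays were well above background, against 71.8% to 73.4% on the EXO-STD arrays, and 0 spots were saturated. Of 12 beta cell markers, 12 were well above background on every array. Skeletal muscle markers summed to 2.05, 1.70 and 1.30 times the 75th percentile on the EXO-HP arrays, against 1.37 and 1.06 times on the EXO-STD arrays, with 11, 13 and 11 of 14 above background, against 9 and 7 of 14. Exocrine markers gave 4, 6 and 5 of 7, against 2 and 3. Adipocyte markers gave 2, 5 and 3 of 5, against 2 and 2. Fibroblast markers gave 3, 6 and 5 of 7, against 4 and 3. Endothelial markers gave 3, 5 and 5 of 5, against 3 and 3. Macrophage and leukocyte markers gave 6 of 7 and other islet markers 4 of 5 on every array. On EXO-HP replicates 2 and 3, counts of muscle, exocrine, adipocyte, fibroblast and endothelial markers were above both EXO-STD arrays. On EXO-HP replicate 1, on the slide of the EXO-STD arrays, only those of muscle and exocrine markers were. All tested muscle (12), exocrine (5), adipocyte (3) and macrophage and leukocyte (6) markers had a higher mean in EXO-HP cells. Of fibroblast and endothelial markers, 4 and 3 of 5 did, and of all genes 62.3%. The part of muscle RNA in the values below was not tested, and values with slide as a block are given beside the results.

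Levels are given as normalised log2 signal, the log2 of the processed intensity minus the array's own 75th percentile, so that 0 is the 75th percentile and a difference of 1 is a 2-fold difference. They compare arrays for one probe and do not rank genes against each other. Log2 fold changes are EXO-HP minus EXO-STD, with the standard error from limma. All values in the order of replicates are EXO-HP 1, 2 and 3, then EXO-STD 1 and 2.

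No immediate early gene passed the test. Of the 33 genes tested, 0 had an adjusted p under 0.05 (limma, Benjamini-Hochberg over 31943 probes), where 0% of probes did, and 0 had an unadjusted p under 0.05, where 5.84% of all 25863 genes tested did (5.6% higher and 0.24% lower in EXO-HP cells) and 5.6% of all probes. Of the 33, 15 had a log2 fold change above 0 (45.5%, against 62.3% of all genes) and 18 one below it. The median log2 fold change was -0.01, against 0.07 over all genes. Both measures moved with signal: of genes above the median signal, where 22 of the 33 members lay, 48.7% were above 0 with a median of -0.0047, and of the dimmer genes 76% were, with a median of 0.25. The members' values together were nearer those of the brighter genes, although 11 of the 33 lay among the dimmer ones. The brighter and dimmer members were not set apart for these measures, so no match to genes of like signal is shown. Their median size was 0.11, against 0.17 over all genes. In 32 of the 33 the size was under 0.4, Junb at 0.58 being the exception. The 95% interval of the log2 fold change lay within 2-fold in either direction for 28 of the 33. The 2 EXO-STD arrays alone differed by more than the groups did for 24 of 33 genes (72.7%), a share near the 67.1% of all genes. All members but 2 were well above background on all 5 arrays, the exceptions being Egr3 and Nr4a3.

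**Figure D1:**
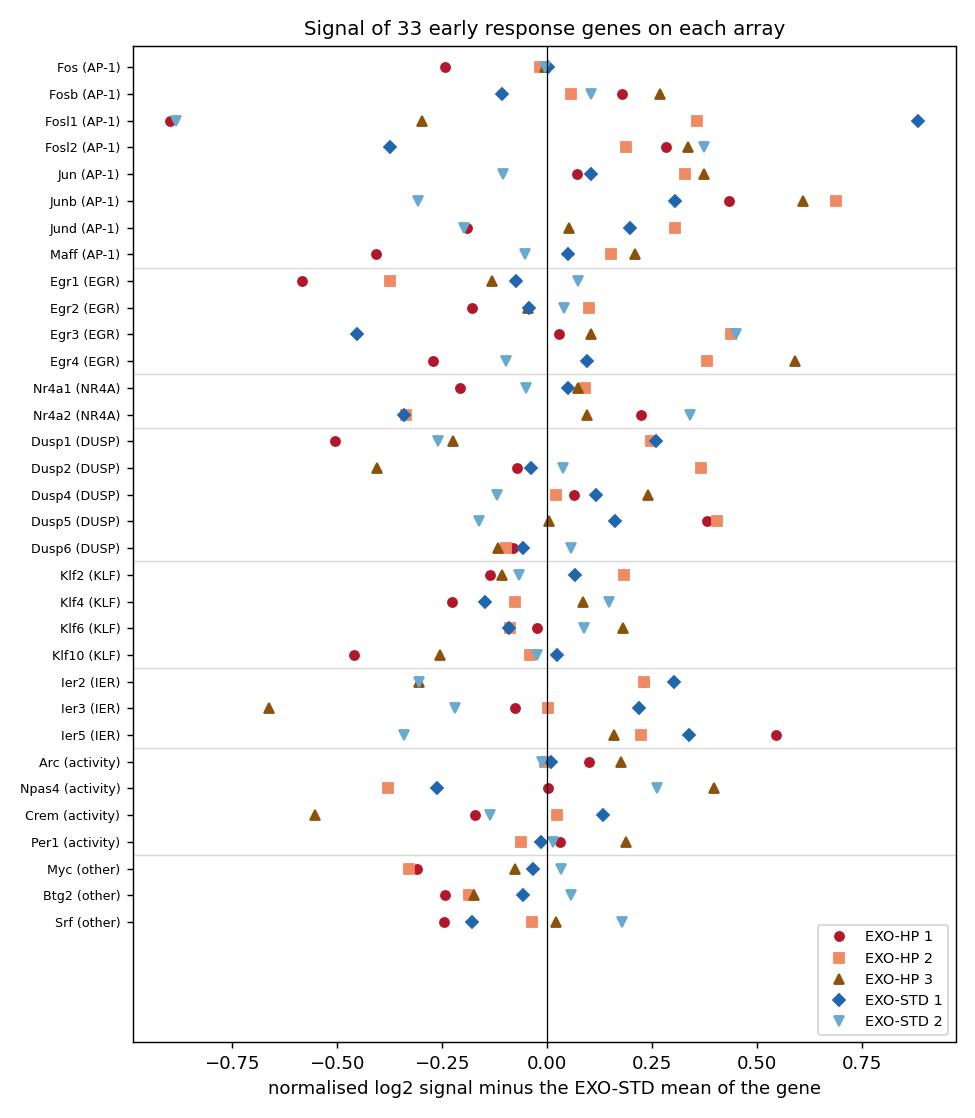
Normalised log2 signal minus the gene's EXO-STD mean (horizontal axis) for the 33 tested genes (vertical axis, by family), with 1 point per array: EXO-HP in red, orange and brown, EXO-STD in blue. For 26 genes the points of both groups overlap, and Fosl1 has the widest spread between the EXO-STD arrays.

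**Figure D2:**
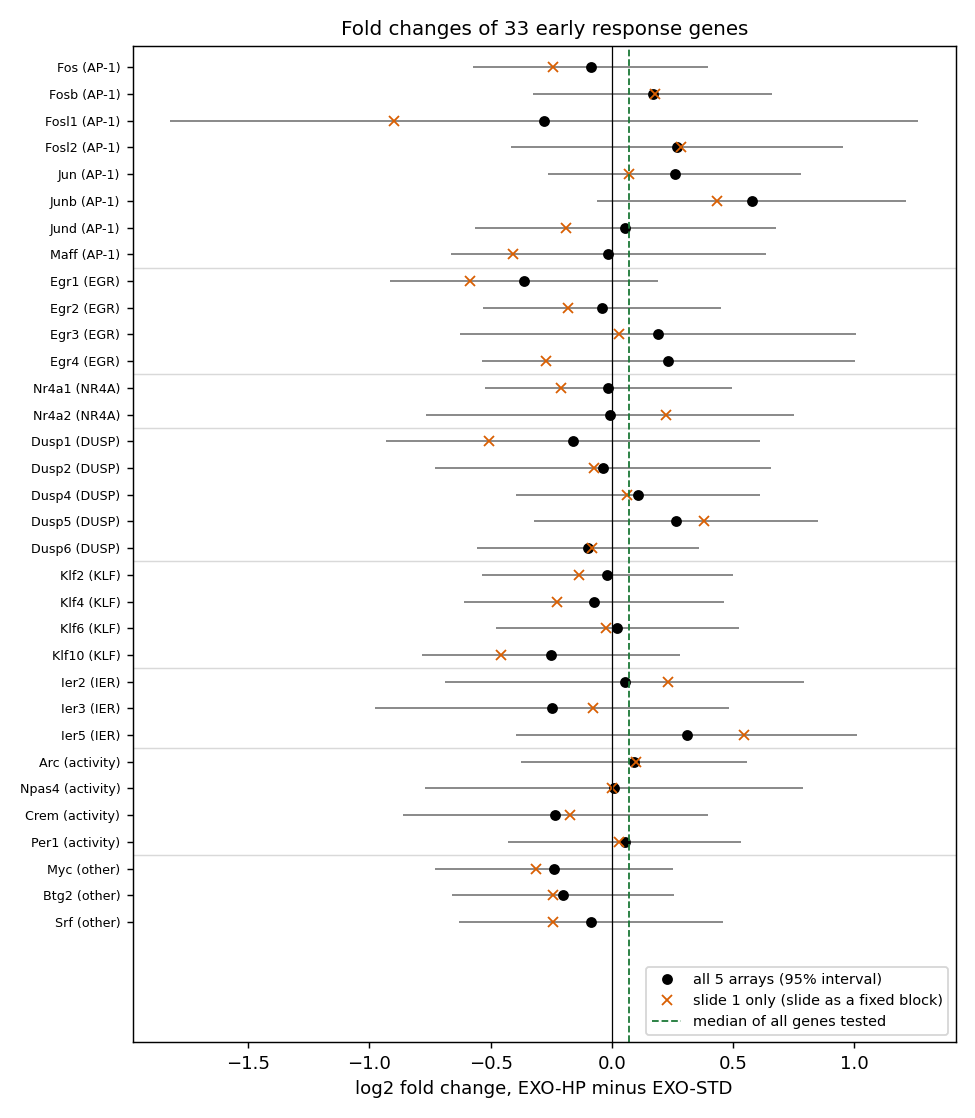
Log2 fold change, EXO-HP minus EXO-STD (horizontal axis), of the 33 tested genes (vertical axis), as black points with 95% intervals from limma, orange crosses for the fit with slide as a fixed block and a dashed line at 0.07, the median of all genes tested. Every interval crosses 0, and Junb at 0.58 and Egr1 at -0.36 are the highest and lowest points.

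Among the AP-1 genes, whose FOS and JUN proteins pair to form the AP-1 transcription factor, Junb had the highest log2 fold change. It (probe at chr8:87501881-87501940, mm9) had normalised log2 signals of -4.38, -4.13 and -4.21 on the EXO-HP arrays, against -4.51 and -5.12 on the EXO-STD arrays. All 3 EXO-HP arrays lay above both EXO-STD arrays. The log2 fold change was 0.58 ± 0.26 (SE, n = 3 and 2), with a 95% interval of -0.06 to 1.21 and a limma adjusted p of 0.916, and this 1.49-fold difference compared with a 1.53-fold difference between the EXO-STD arrays themselves. The value depended on the scaling, being 0.08 after normexp and quantile normalisation, and on the array, being 0.88 without EXO-STD replicate 1 and 0.27 without EXO-STD replicate 2.

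Jun, the partner shared by most AP-1 dimers, had 0.77, 1.03 and 1.08 in EXO-HP cells, against 0.81 and 0.60 in EXO-STD cells, a log2 fold change of 0.26 ± 0.21 with overlapping groups. Jund, the JUN protein that resting cells also carry, had 2.88, 3.37 and 3.12 in EXO-HP cells, against 3.27 and 2.87 in EXO-STD cells, and the groups overlapped. Fos had -1.75, -1.53 and -1.51 in EXO-HP cells, against -1.51 and -1.51 in EXO-STD cells, a log2 fold change of -0.09 ± 0.19. The EXO-HP arrays lay at or below the EXO-STD arrays, and the nearest of them met to 2 decimals. The other AP-1 members gave a log2 fold change of 0.17 for Fosb, 0.27 for Fosl2 and -0.01 for Maff, a small MAF protein that dimerises with AP-1 factors. Fosl1 was the least precise of all, with a log2 fold change of -0.28 and an interval of -1.82 to 1.26, since EXO-STD replicates 1 and 2 stood at -2.59 and -4.36.

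Fos and Nr4a3 were printed as 10 spots per array, which gives a measure of the error within an array. The SD between the used Fos spots was 0.04, 0.08 and 0.12 on the EXO-HP arrays, against 0.07 and 0.40 on the EXO-STD arrays. The 0.40 came with 1 spot at -2.64, which was not marked as an outlier. With the median of the spots in place of the mean, Fos stood at -1.76, -1.54 and -1.52 in EXO-HP cells, against -1.51 and -1.38 in EXO-STD cells, and the log2 fold change was -0.16 (adjusted p = 1.00), an alternative added after the data were seen. Nr4a3, the orphan nuclear receptor NOR-1, was not well above background on any of the 5 arrays and was not tested. Of its used spots, 2 were well above background on EXO-HP replicate 3 and 0 on each of the other 4 arrays. Among the spots marked as outliers and left out, 1 on EXO-HP replicate 2 and 2 on EXO-STD replicate 2 were well above background.

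**Figure D3:**
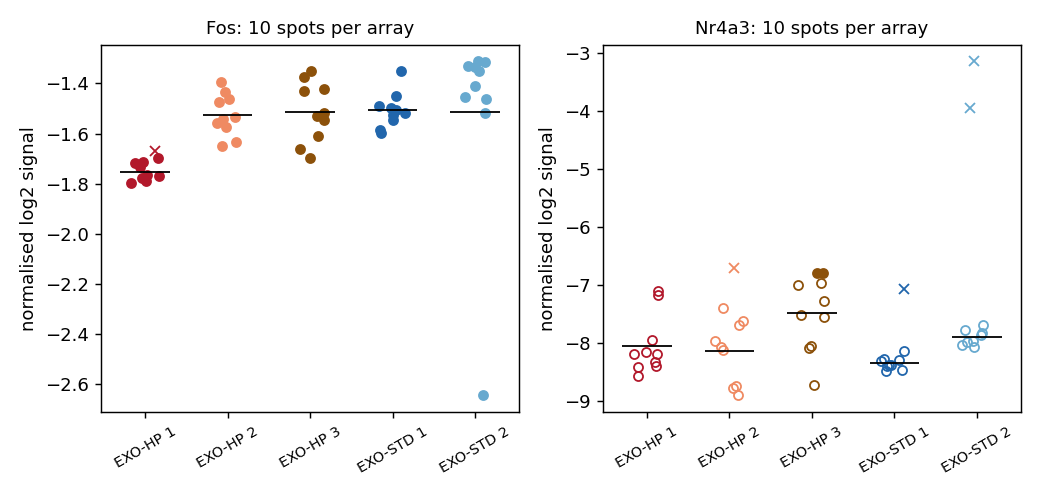
Normalised log2 signal (vertical axis) of the 10 replicate spots of Fos and of Nr4a3 on each array, EXO-HP arrays first. Filled points are well above background, open points are not, crosses are outlier spots left out and bars are the mean of the used spots. Fos lies near -1.5 on 4 arrays and at -1.75 on EXO-HP replicate 1, with 1 stray spot at -2.64 on EXO-STD replicate 2, and all used Nr4a3 spots but 2 are open.

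The EGR genes encode zinc finger factors that bind GC-rich sites, and Egr1 is the member known to respond to glucose in beta cells. Egr1 (probe at chr18:35024395-35024454, mm9) had 0.59, 0.80 and 1.04 in EXO-HP cells, against 1.10 and 1.24 in EXO-STD cells. All 3 EXO-HP arrays lay below both EXO-STD arrays. The log2 fold change was -0.36 ± 0.22, the lowest of the 33, with an interval of -0.92 to 0.19 and an adjusted p of 1.00. Egr4 had -3.75, -3.10 and -2.89 in EXO-HP cells, against -3.38 and -3.57 in EXO-STD cells, with overlapping groups. Egr2, which is also known in nerve and immune cells, had a log2 fold change of -0.04 ± 0.20. Egr3 was well above background on 2 of 3 EXO-HP arrays and on 0 of 2 EXO-STD arrays, with measured means of -6.74 and -6.93, and no fold is given because its bound was under 1. It entered the test through the EXO-HP arrays alone, and without it 14 of 32 members were above 0.

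The NR4A genes encode orphan nuclear receptors that are induced by cAMP and calcium. Nr4a1 had 2.05, 2.35 and 2.33 in EXO-HP cells, against 2.31 and 2.21 in EXO-STD cells, a log2 fold change of -0.01 with an interval of -0.52 to 0.49. Nr4a2 had 1.79, 1.23 and 1.66 in EXO-HP cells, against 1.22 and 1.90 in EXO-STD cells, so that the EXO-STD arrays spanned the whole EXO-HP range. Its second probe had 0.32, 0.32 and 0.56 in EXO-HP cells, against -0.04 and 0.87 in EXO-STD cells, and both probes gave a log2 fold change of -0.01.

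The DUSP genes encode phosphatases that inactivate MAP kinases, and DUSP6 acts on ERK and is often read as a marker of ERK activity. Dusp6 had 2.32, 2.31 and 2.29 in EXO-HP cells, against 2.35 and 2.46 in EXO-STD cells. All EXO-HP arrays lay below both EXO-STD arrays, by little, with a log2 fold change of -0.10 ± 0.18 and an interval of -0.56 to 0.36. Dusp5, a nuclear ERK phosphatase, had -2.39, -2.37 and -2.77 in EXO-HP cells, against -2.61 and -2.93 in EXO-STD cells, a log2 fold change of 0.26 ± 0.24 with overlapping groups. Dusp4 had -0.35, -0.39 and -0.17 in EXO-HP cells, against -0.30 and -0.53 in EXO-STD cells. Dusp1, which acts on p38 and JNK as well, had a log2 fold change of -0.16 ± 0.31, and Dusp2 one of -0.04 ± 0.28.

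The KLF genes encode zinc finger factors, of which Klf10 was first described as a TGF-beta induced gene. Klf10 (probe at chr15:38224255-38224314, mm9) had -0.01, 0.41 and 0.20 in EXO-HP cells, against 0.48 and 0.43 in EXO-STD cells. All EXO-HP arrays lay below both EXO-STD arrays, and the log2 fold change was -0.25 ± 0.21 (adjusted p = 1.00). Klf4 had 0.33, 0.48 and 0.64 in EXO-HP cells, against 0.40 and 0.70 in EXO-STD cells. Klf6 had 1.09, 1.02 and 1.29 in EXO-HP cells, against 1.02 and 1.20 in EXO-STD cells, and its groups overlapped like those of Klf4. Klf2, known for its response to flow in endothelium, had a log2 fold change of -0.02 ± 0.21.

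The IER genes are named for their immediate early response. Ier5 had -1.61, -1.93 and -1.99 in EXO-HP cells, against -1.81 and -2.49 in EXO-STD cells, a log2 fold change of 0.31 ± 0.28, and its second probe gave 0.26 ± 0.25. Ier3, a regulator of cell survival, had -2.34, -2.26 and -2.92 in EXO-HP cells, against -2.04 and -2.48 in EXO-STD cells, a log2 fold change of -0.25 ± 0.29. Ier2 had a log2 fold change of 0.05 ± 0.30. In each of these 3 genes the groups overlapped.

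The activity and cAMP genes are best known from neurons. Arc, a synaptic protein of neurons, had 0.25, 0.14 and 0.33 in EXO-HP cells, against 0.16 and 0.14 in EXO-STD cells, a log2 fold change of 0.09 ± 0.19. Npas4, a calcium-induced transcription factor also described in beta cells, had a log2 fold change of 0.01 ± 0.31. Per1, a clock gene with CREB control, had 1.69, 1.60 and 1.85 in EXO-HP cells, against 1.64 and 1.67 in EXO-STD cells. Crem, which gives rise to the cAMP-induced repressor ICER from an internal promoter, had -0.77, -0.57 and -1.15 in EXO-HP cells, against -0.46 and -0.73 in EXO-STD cells, a log2 fold change of -0.23 ± 0.25. Its second probe gave -0.11 ± 0.24. Its remaining probe had a measured difference of the opposite sign, standing at -5.60, -6.62 and -5.88 on the EXO-HP arrays, where it was well above background on all 3, against -6.21 and -6.25 on the EXO-STD arrays, where it was above background on neither. That probe entered the test through the EXO-HP arrays alone, and EXO-HP replicate 2 lay below both EXO-STD arrays.

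Of the remaining genes, Myc, the growth-promoting transcription factor, had -2.51, -2.53 and -2.27 in EXO-HP cells, against -2.23 and -2.16 in EXO-STD cells (probe at chr15:61821417-61821476, mm9). Btg2, an antiproliferative early gene, had -0.43, -0.37 and -0.36 in EXO-HP cells, against -0.24 and -0.13 in EXO-STD cells (probe at chr1:135972094-135972153, mm9). In both, all EXO-HP arrays lay below both EXO-STD arrays, with log2 fold changes of -0.24 ± 0.20 and -0.20 ± 0.18 and adjusted p of 1.00 each. Srf, the factor that binds CArG boxes, had -0.05, 0.16 and 0.22 in EXO-HP cells, against 0.02 and 0.37 in EXO-STD cells, a log2 fold change of -0.09 ± 0.22. Its second probe had -1.01, -0.63 and -0.77 in EXO-HP cells, against -0.85 and -1.06 in EXO-STD cells, and with a log2 fold change of 0.15 ± 0.22 it differed in sign from the first.

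Although no single gene passed the test, the order of the arrays was uneven. All 3 EXO-HP arrays lay below both EXO-STD arrays for 6 of 33 genes (18.2%: Btg2, Dusp6, Egr1, Fos, Klf10 and Myc), where 2.82% of all genes did, and above both for 1 (Junb, 3.03%), where 15.1% did. By mean signal, 22 of the 33 members lay in the brighter part of the array, above the median gene, where 5 of them lay below both EXO-STD arrays and 3.95% of all genes there did, and 0 of them above both, where 5.88% did. The order depended on scaling. Under normexp with quantile normalisation 9 members lay below, where 6.04% of genes did, and 0 above, where 7.32% did, while median scaling gave 8 below, where 11.2% of genes did. In all 5 scalings together 5 members lay below (15.2%: Btg2, Egr1, Fos, Klf10 and Myc), where 1.96% of all genes did. Of genes above the median signal 2.47% did, a share that does not cover Myc, which lay among the dimmer genes. In all 5 scalings 0 members lay above, where 3.93% of all genes did. Among those scalings, the deposited table and normexp order the arrays alike. These counts are a description and carry no test, since the genes are not independent and the log2 fold changes of these 5 were between -0.36 and -0.09.

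**Figure D4:**
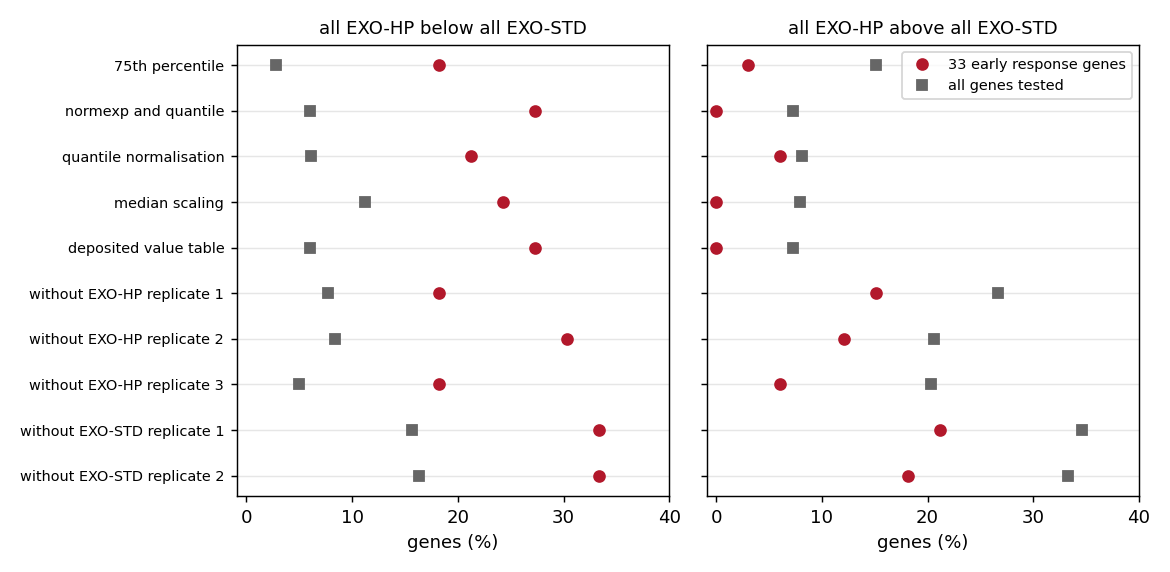
Percent of genes (horizontal axis) whose EXO-HP arrays all lay below (left panel) or above (right panel) all EXO-STD arrays, for the 33 tested members (circles) and all genes tested (squares), in 5 scalings and with each array left out (vertical axis). The members' share below is the higher one in each setting shown, and their share above the lower one, with 18.2% against 2.82% below and 3.03% against 15.1% above at the 75th percentile scaling.

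EXO-HP replicate 1 was low for more members than the other EXO-HP arrays. It lay below both EXO-STD arrays for 17 of 33 members (51.5%, against 21.3% of all genes and 26% of those above the median signal). The 17 were not divided by signal, and 22 of the 33 members lay above that median. EXO-HP replicate 2 did so for 8 members, where 22.0% of all genes did, and EXO-HP replicate 3 for 12, where 22.1% did. It was the lowest of the 5 arrays for 13 members (39.4%), against 15.2% of all genes. Against the EXO-STD mean, the members' median stood at -0.08 on that array and at 0.06 and 0.05 on EXO-HP replicates 2 and 3, where the median of all genes stood at 0.04, 0.19 and 0.07 on these 3 arrays. Relative to all genes, the members' median was thus about as low on EXO-HP replicate 2 as on EXO-HP replicate 1. That reference includes the dimmer genes, whose median log2 fold change was 0.25, while 22 of the 33 members lay among the brighter ones. A median of the brighter genes is not given for each array, so this likeness may not hold at like signal. EXO-HP replicate 1 is also the one EXO-HP array on the slide of the EXO-STD arrays, so the fit with slide as a block rests on it alone among the EXO-HP arrays. That fit gave log2 fold changes of -0.58 for Egr1, -0.46 for Klf10, -0.31 for Myc, -0.24 for Btg2 and -0.24 for Fos, against the unblocked values of -0.36, -0.25, -0.24, -0.20 and -0.09. Junb stood at 0.43 there, and 13 of the 33 members were above 0, with a median of -0.08.

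No gene of the 3 related lists passed the test either, and the lists are described by counts only. Of 35 tested other early response genes, 13 had a log2 fold change above 0 (37.1%, against 62.3% of all genes) and 22 below it. Their median was -0.07, against 0.07 over all genes, and 0 had an unadjusted limma p under 0.05, where 5.84% of all genes did. Bhlhe40, a clock-related repressor, had -2.62, -2.51 and -2.52 in EXO-HP cells, against -2.07 and -2.32 in EXO-STD cells, a log2 fold change of -0.36 ± 0.20 (adjusted p = 0.957). Zfp36, which speeds decay of AU-rich transcripts, had -5.40, -5.48 and -5.24 in EXO-HP cells, against -4.98 and -5.23 in EXO-STD cells. Sik1, a kinase induced by cAMP, had -0.998, -0.78 and -0.76 in EXO-HP cells, against -1.11 and -1.03 in EXO-STD cells. For these 3 genes, named for the smallest p of the list, the groups did not overlap. The EXO-HP arrays lay below for Bhlhe40 and Zfp36 and above for Sik1. Of all 35, 3 lay below, where 2.82% of all genes did, and 2 above, where 15.1% did.

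The ERK and MAP kinase cascade acts upstream of SRF and ELK. Of its 26 tested genes, 15 had a log2 fold change above 0 (57.7%, against 62.3% of all genes) and 11 below it. Their median was 0.00, against 0.07 over all genes. An unadjusted limma p under 0.05 was found for 0 of them, where 5.84% of all genes had one. Spry2, a feedback inhibitor of the cascade, had -3.03, -2.25 and -2.50 in EXO-HP cells, against -3.38 and -3.00 in EXO-STD cells, a log2 fold change of 0.59 ± 0.30 (adjusted p = 0.953) with groups that overlapped. Spred1, another inhibitor, was well above background on 2 of 3 EXO-HP arrays and 0 of 2 EXO-STD arrays, with -6.50, -5.83 and -5.77 in EXO-HP cells, against -6.36 and -7.35 in EXO-STD cells. It entered the test through the EXO-HP arrays alone, and its groups overlapped. The kinase Map2k2 had 2.16, 2.22 and 2.34 in EXO-HP cells, against 1.92 and 2.09 in EXO-STD cells, all EXO-HP arrays lying above. That order held for 3 of the 26 genes, where 15.1% of all genes showed it. Of 29 tested SRF, CREB and calcium regulators, 17 had a log2 fold change above 0 (58.6%, against 62.3% of all genes) and 12 below it. The median was 0.01, against 0.07 over all genes, and 0 had an unadjusted limma p under 0.05, where 5.84% of all genes did. The 3 with the smallest p were Mef2d at -0.38 ± 0.29, Mef2a at -0.26 ± 0.26 and Elk1 at 0.16 ± 0.19.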

How the data were processed

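RNA from 5 MIN6 samples was measured on 1-colour Agilent arrays, labelled with Cy3. The deposited scanner tables hold spot intensity values from Feature Extraction 10.7.3.1, background-subtracted and detrended, per the file headers, whereas version 9.1 of Agilent Feature Extraction, along with limma, is named per the submitters' processing notes. The value table deposited by the authors holds log2 values with a median of 7.93 on each array, ranked as the background-subtracted signals are (Spearman rho = 1), and served as an alternative. Its scale is log2 with no centring of genes, and 0 of its columns were unmatched.

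Control and outlier spots were left out of 44397 spots, spots of 1 probe were averaged on the log2 scale, and the 75th percentile of its array was taken off each value. Probes without a usable spot (110) or with fewer than 2 arrays of any 1 group well above background (7376) were removed, leaving 31943 probes of 25863 genes. The comparison used lmFit and eBayes of limma 3.58.1 (R 4.3.3) without covariates, with Benjamini-Hochberg adjustment over all tested probes and a threshold of 0.05. Degrees of freedom were 3 residual and 2.59 prior, and the smallest two-sided p an exact permutation test could give here is 0.2. The limma fit was tested on simulated data with known fold changes. The number of arrays limits the precision. For a probe below background in a whole group, the bound on its fold sets the brighter group's mean against, per array, the higher of the dim probe's signal and the lowest signal well above background.

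The members, the lists and the rule for named genes were chosen with earlier results of these data known. The rule took per-array values for the 2 members of each family with the smallest p, the brightest member and genes whose probes disagreed in sign, and 3 genes per pathway list. Fos and Fosl1 were added for their spots and spread. Probe positions are on mm9, per the file headers, without exon annotation. Promoters are from RefSeq, GRCm38.p6. Replicate numbers pair nothing in the labels, and the correlation of same-numbered samples' deviations was 0.02 and -0.06.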

Additional observations from a re-analysis of the deposited data

How the results depend on the processing

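Under the 15 alternatives, 427 of 495 log2 fold changes of the 33 tested genes kept their direction and 68 did not, and 11 genes kept it in every alternative. Not all of these could turn. Alternatives that change only the filter on dim probes leave each log2 fold change as it was. The mean over a gene's probes could change only the 5 genes with 2 or more probes. The replicate block and the fit without EXO-HP replicate 3 gave the same log2 fold changes and were both counted. No member passed the adjusted threshold in any alternative. Egr3 and Nr4a3 were limited by their signal over background, and values of Egr3 below are measured differences, not folds. The cause was not tested.

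Members above 0 numbered 15, and 7 under median scaling. That scaling shifted all genes by -0.18 in the median and put the members' median at -0.19, while the members' median minus that of all genes stayed at -0.09. Probes with an unadjusted p under 0.05 numbered 1788 and were 482 under normexp with quantile normalisation, 868 under quantile normalisation, 631 in the deposited table, 1079 when above background on all arrays and 843 in a fixed slide block. The share of those probes that were higher in EXO-HP was 95.7%, against 66.2%, 74.1%, 83.9%, 73.2% and 59.1% under normexp with quantile, quantile, median scaling, the deposited table and the slide block. Members with all EXO-HP arrays above both EXO-STD arrays numbered 1 (all genes 15.1%), and were 0 under normexp with quantile (7.32%), 2 under quantile normalisation (8.14%), 0 under median scaling (7.91%) and 0 in the deposited table (7.32%).

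Directions that turned were, under normexp with quantile, Egr3 (-0.12), Nr4a2 (0.059), Klf4 (0.056), Ier2 (-0.066) and Npas4 (-0.030). Under quantile normalisation they were Egr3 (-0.55), Nr4a2 (0.0028), Ier2 (-0.058) and Npas4 (-0.019). Under median scaling they were Fosb (-0.0077), Jund (-0.12), Dusp4 (-0.067), Klf6 (-0.15), Ier2 (-0.12), Arc (-0.085), Npas4 (-0.17) and Per1 (-0.12). In the deposited table they were Egr3 (-0.24), Nr4a2 (0.060), Klf4 (0.057), Ier2 (-0.072) and Npas4 (-0.031). In the fixed slide block they were Jund (-0.19), Egr4 (-0.27), Nr4a2 (0.22) and Klf6 (-0.023), and in the random one Maff (0.039) and Nr4a1 (0.012). The mean of a gene's probes turned Srf (0.035).

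With the replicate block, which drops EXO-HP replicate 3, 1649 probes had an unadjusted p under 0.05, 14 members were above 0 with a median of -0.04, and the directions that turned were Dusp2 (0.15), Klf2 (0.024), Klf6 (-0.055), Npas4 (-0.19) and Per1 (-0.015). In the labels the samples share only a number, and EXO-HP replicate 1 and EXO-STD replicate 1 also shared a slide.

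With each array left out in turn, probes past the adjusted threshold numbered 0 to 3 (3 without EXO-STD replicate 1), and those at an unadjusted p under 0.05 numbered 950 without EXO-HP replicate 3 to 3411 without EXO-HP replicate 1. Members below the EXO-STD arrays left in numbered 6 to 11, where 4.95% to 16.3% of genes were, and members above them 2 to 7, where 20.3% to 34.6% were. The highest counts, 11 and 7, had 1 EXO-STD array left. The log2 fold change of Fosl1 ran from -1.16 to 0.61, Fosl2 -0.10 to 0.64, Jund -0.14 to 0.25, Maff -0.13 to 0.18, Egr2 -0.11 to 0.028, Egr3 -0.26 to 0.64, Nr4a1 -0.066 to 0.083, Nr4a2 -0.35 to 0.33, Dusp1 -0.42 to 0.099, Dusp2 -0.24 to 0.15, Dusp4 -0.0091 to 0.23, Klf2 -0.12 to 0.047, Klf4 -0.22 to 0.075, Klf6 -0.066 to 0.11, Ier2 -0.25 to 0.36, Ier5 -0.030 to 0.65, Npas4 -0.26 to 0.27, Per1 -0.015 to 0.11 and Srf -0.26 to 0.093.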
